A study of Mus musculus with 11 samples.

Results

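Wnt ligands, their receptors and the proteins that restrain them were examined in mouse stomach. The 52 genes, of 19938 measured, were those whose symbols name a Wnt, Fzd, Sfrp, Dkk, Rspo or Lgr4 to Lgr6 family member, together with Lrp5, Lrp6, Axin2, Nkd1, Notum, Wif1, Rnf43 and Znrf3. They comprised 19 ligands, 10 frizzled receptors, 2 co-receptors, 4 R-spondins, 3 R-spondin receptors, 10 secreted inhibitors and 4 feedback inhibitors. Each gene was represented by 1 probe set. Wnt4 had a second one, and the brighter was used.

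Total RNA from 11 stomach samples was hybridised to Affymetrix arrays. NGE, with 4 arrays, was normal gastric epithelium of Pdx1-1-Cre-negative mice. pChePS_GC, with 4 arrays, was gastric cancer tissue of Pdx-1-Cre mice that also carried Cdh1F/+ together with Trp53F/F and Smad4F/F. pCP_GC, with 3 arrays, was gastric cancer tissue of Pdx-1-Cre mice carrying Cdh1F/F and Trp53F/F. Both cancers were of diffuse-type histology, and the mice were untreated. In both models Cre is driven from Pdx1, a gene of the antral stomach, duodenum and pancreas, and both share the Trp53F/F alleles. The labels give no age, sex or strain background, do not say which floxed alleles the NGE mice carried, and do not say whether the arrays of a group came from separate mice. P-values therefore measure the spread between these samples, which may be technical.

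Wnt ligands are lipid-modified proteins that act over short distances. In the canonical branch a ligand joins a frizzled receptor to Lrp5 or Lrp6, which keeps β-catenin from being degraded so that it can activate genes together with TCF/LEF factors. Other branches use frizzled, Ror or Ryk receptors and govern cell shape and polarity. R-spondins bind Lgr4 to Lgr6 and remove the ligases Rnf43 and Znrf3, which otherwise take frizzled receptors off the cell surface. Sfrp proteins and Wif1 bind the ligands, and Dkk proteins other than the divergent Dkk3 bind the co-receptors. Axin2, Nkd1, Notum, Rnf43 and Znrf3 are themselves switched on by β-catenin and damp the signal. In the stomach this pathway is known for maintaining gland stem cells, with stromal cells as a source of ligands, R-spondins and inhibitors.

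Values are deposited log2 signals, so a difference of 1 is a 2-fold difference. As a mark of background, the 95th percentile of the group means of 1190 olfactory and vomeronasal receptor genes was taken, which lay at 7.24 in NGE, 6.99 in pChePS_GC and 6.86 in pCP_GC. Of the 52 genes, 47 had a mean above it in NGE and 50 in each tumour group. Rspo2 and Wnt8b lay at or under it in all 3 groups, and Sfrp2, Sfrp4 and Wnt2 did so in NGE only. The median of all genes on an array ranged from 8.10 to 8.16 in NGE, from 8.25 to 8.34 in pChePS_GC and from 8.29 to 8.44 in pCP_GC.

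The tumour arrays also differed from NGE in the cells they held. Summed signals of 10 fibroblast markers (log2 of the sum) ran from 11.31 to 11.49 in NGE, from 14.30 to 15.34 in pChePS_GC and from 14.60 to 15.32 in pCP_GC. Of those markers, 10 of 10 rose in pChePS_GC and 9 of 10 in pCP_GC, and Lum and Fap were at background in NGE, as Fap was in pCP_GC. Sums of 6 smooth muscle markers were 10.42 to 10.50, 12.64 to 14.99 and 13.76 to 14.70 in the same order of groups, and 6 of 6 markers rose in each tumour group. The corresponding ranges were 9.74 to 9.97, 12.44 to 13.52 and 12.29 to 12.87 for 6 endothelial markers and 10.10 to 10.45, 13.55 to 14.20 and 13.33 to 14.38 for 6 macrophage markers, with 6 of 6 higher in each tumour group in both lists. Des of the muscle list, Cdh5, Kdr, Emcn and Tek of the endothelial list and Adgre1 of the macrophage list were at background in NGE. Parietal cell sums over 5 markers, all of which fell in both tumour groups, were 15.28 to 15.36, 9.51 to 10.27 and 9.29 to 12.28. Chief cell sums were 15.07 to 15.54, 10.44 to 13.37 and 11.47 to 14.17, with 5 of 5 markers lower in pChePS_GC and 4 of 5 in pCP_GC. Surface mucous sums were 16.41 to 16.45, 13.41 to 15.30 and 15.06 to 15.68 (4 of 5 and 1 of 5 lower), and mucous neck and antral sums were 14.73 to 14.87, 14.34 to 15.36 and 15.49 to 15.63 (3 of 5 higher in each, and 1 lower in pChePS_GC). Sums of 5 general epithelial markers were 15.29 to 15.37, 15.47 to 15.56 and 15.14 to 15.58, so the labelled epithelium was present in all 3 groups. Xist was 11.54 to 12.66 in NGE, 5.72 to 6.02 in pChePS_GC and 5.57 to 5.81 in pCP_GC, and the Y-linked Eif2s3y was 4.94 to 5.19, 9.21 to 11.09 and 8.08 to 10.01. Tumour status and the difference in sex-linked genes therefore cannot be told apart in either comparison with NGE. In these bulk samples fewer cells of a type and less RNA per cell cannot be told apart either, and the part of stromal and epithelial cell content in the results that follow was not tested.

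Both tumour groups were set against the same NGE arrays, so the comparisons share their controls and are given side by side. In pChePS_GC, 11 of 52 genes rose and 9 fell (limma, Benjamini-Hochberg adjusted p under 0.05), where 18.7% of all genes rose and 23.4% fell, against 21.2% and 17.3% of the 52. In pCP_GC, 13 rose and 19 fell, which is 25% and 36.5% of the 52, where 20% of all genes rose and 31.8% fell. The shares were thus near those of all genes in both directions. Larger changes lay further from that background: 8 of 52 genes (15.4%) rose at least 2-fold in pChePS_GC and 10 (19.2%) in pCP_GC, where 6.98% and 8.13% of all genes did. In either direction, 20 genes (38.5%) and 32 genes (61.5%) passed, where 42.1% and 51.8% of all genes did, and 9 and 11 did so with at least 2-fold, where 10.3% and 11% did. Only Fzd4 fell at least 2-fold, in both tumour groups, where 3.34% and 2.83% of all genes did. The arrays did not overlap NGE for 11 genes that were higher and 11 that were lower in pChePS_GC, where 17.7% and 22.9% of all genes did not. In pCP_GC these were 14 and 21 genes, where 24% and 35.6% of all genes did not overlap. The genes that rose in both were Dkk2, Dkk3, Fzd1, Fzd2, Fzd7, Sfrp1, Sfrp4 and Wnt5a, and those that fell in both were Fzd4, Lgr6, Sfrp5, Wnt11, Wnt3, Wnt3a, Wnt8a and Wnt9a.

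**Figure D1:**
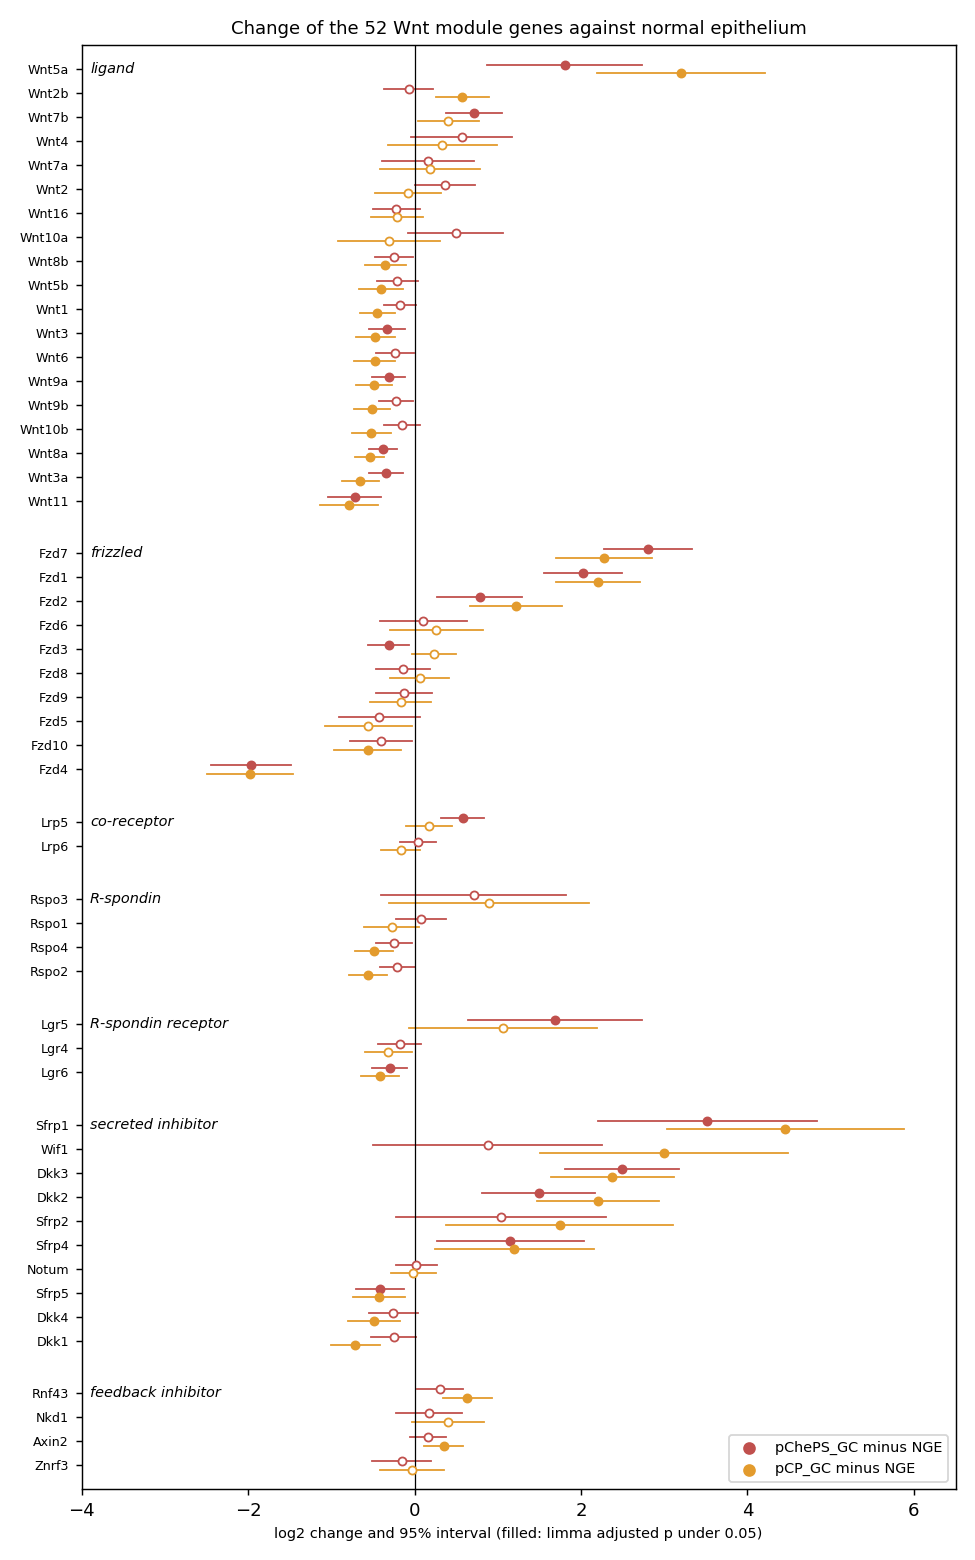
Log2 change from NGE (x axis) of each of the 52 genes, grouped by role, in pChePS_GC and pCP_GC, with 95% intervals from limma and filled points where the adjusted p was under 0.05. Sfrp1 stands farthest to the right in both tumour groups (3.52 and 4.46) and Fzd4 farthest to the left (-1.97 and -1.98).

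Most falls were small and belonged to dim genes. The median change was -0.10 over all genes in pChePS_GC and -0.12 in pCP_GC, and over the receptor genes used as background it was -0.15 and -0.22. The 5th percentile of the receptor genes' changes was -0.39 in pChePS_GC and -0.54 in pCP_GC, and 3 of the 9 falls (Fzd4, Sfrp5, Wnt11) and 6 of the 19 (Dkk1, Fzd10, Fzd4, Rspo2, Wnt11, Wnt3a) went past it. After centring arrays on their medians, the median change of all genes became -0.27 and -0.33. Of the 52 genes, 11 rose and 23 fell in pChePS_GC, where 2695 and 9101 of all 19938 genes did. In pCP_GC 10 rose and 24 fell, where 2686 and 9716 of all genes did. With each array centred on the receptor genes, the all-gene medians became 0.07 and 0.10. The counts were then 13 and 3 in pChePS_GC, where 4795 of all genes rose and 1714 fell. In pCP_GC they were 17 and 8, where 5660 of all genes rose and 2646 fell.

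Of the 19 ligands, 2 rose and 5 fell in pChePS_GC, with a median change of -0.21, and 2 rose and 11 fell in pCP_GC, with a median of -0.41. The share that fell was 26.3% in pChePS_GC, near the 23.4% of all genes, and 57.9% in pCP_GC, where 31.8% of all genes fell, while 10.5% rose in each, where 18.7% and 20% of all genes did. Wnt5a, a ligand mainly of the non-canonical branch that is made by mesenchymal cells of the gut, had the largest rise among them. Its signal was 7.55, 7.32, 7.23 and 7.62 on the 4 NGE arrays, 8.52, 8.19, 9.76 and 10.47 on the 4 pChePS_GC arrays, and 10.83, 10.20 and 10.87 on the 3 pCP_GC arrays. All tumour arrays lay above all NGE arrays, and pChePS_GC spread more widely than pCP_GC. Wnt5a was 3.49-fold higher in pChePS_GC (log2 change 1.80, SE 0.42, adjusted p 0.0071) and 9.20-fold higher in pCP_GC (3.20, SE 0.46, adjusted p 0.000393).

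Wnt11, another ligand known for non-canonical signalling, moved the other way. It read 9.43, 9.14, 9.07 and 9.22 in NGE, against 8.33, 8.73, 8.45 and 8.47 on the pChePS_GC arrays and 8.65, 8.57 and 8.04 on the pCP_GC arrays. No tumour array reached the lowest NGE array. The log2 changes were -0.72 (SE 0.15, adjusted p 0.00323) and -0.79 (SE 0.16, adjusted p 0.00231).

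Wnt7b, a ligand of epithelial cells in many organs, rose in pChePS_GC. NGE read 8.005, 7.995, 8.09 and 7.98, pChePS_GC 8.77, 8.66, 8.66 and 8.82, and pCP_GC 8.71, 7.91 and 8.65. The change was 1.64-fold in pChePS_GC (log2 0.71, SE 0.15, adjusted p 0.0045). In pCP_GC it was 0.41 with an adjusted p of 0.0598, as pCP_GC replicate 2 lay at the NGE level. Wnt2b rose in pCP_GC (0.57, SE 0.14, adjusted p 0.00738, a call lost with median centring), where its mean was 8.21 ± 0.32 (SD, n = 3) against 7.64 ± 0.07 (n = 4) in NGE and 7.57 ± 0.17 (n = 4) in pChePS_GC. The remaining ligands that passed fell by 0.31 to 0.38 in pChePS_GC (Wnt3, Wnt3a, Wnt8a, Wnt9a) and by 0.35 to 0.65 in pCP_GC (these and Wnt1, Wnt10b, Wnt5b, Wnt6, Wnt8b, Wnt9b). None of those 4 falls in pChePS_GC went past the 5th percentile of the receptor genes' changes, -0.39. With receptor centring the calls of Wnt3, Wnt3a and Wnt9a in pChePS_GC were lost, and those of Wnt3 and Wnt9a were also lost in 4 and 3 of the 11 fits with 1 array left out. In pCP_GC receptor centring ended the calls of Wnt1, Wnt3, Wnt5b, Wnt6, Wnt8b and Wnt9a. The Wnt5b call there was also lost without pCP_GC replicate 2 (adjusted p 0.0639). That of Wnt8b, a gene at background in all groups, was lost in 3 of the 11 fits with 1 array left out (adjusted p 0.0531 to 0.0837) and with quantile normalization (adjusted p 0.316).

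**Figure D2:**
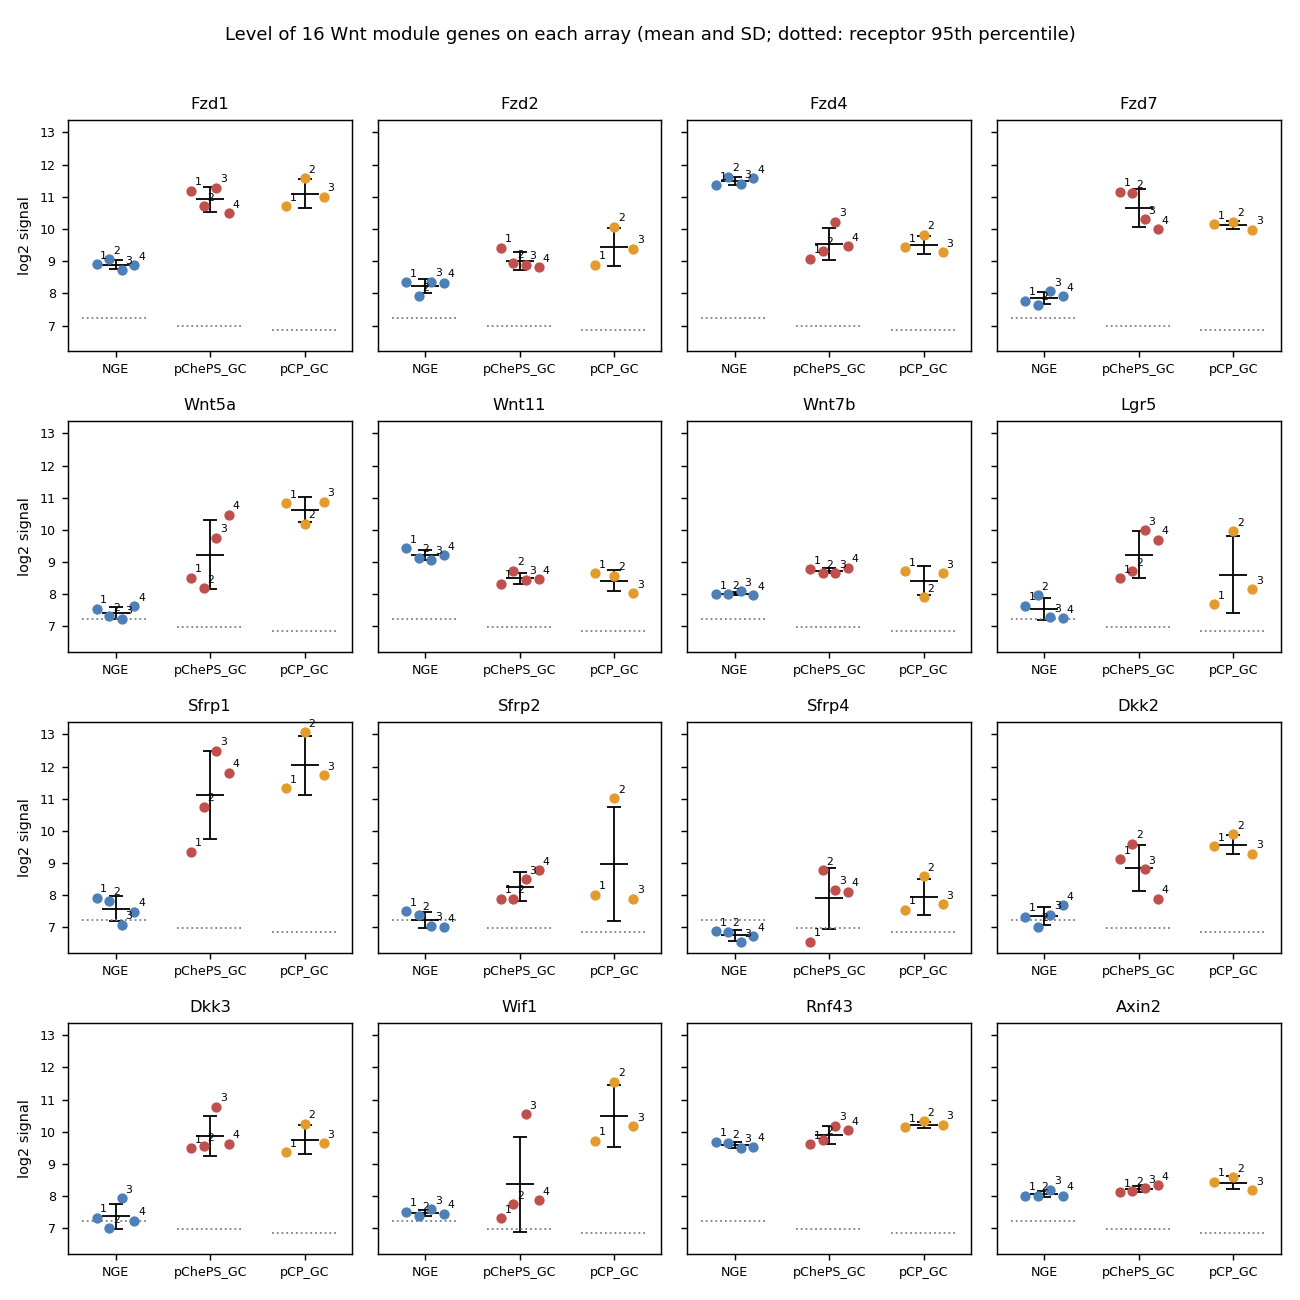
Log2 signal (y axis) of 16 genes on each of the 11 arrays, 1 panel per gene, with numbered points for arrays, horizontal bars for group means, whiskers for SD and dotted lines at the receptor genes' 95th percentile, in NGE (n = 4), pChePS_GC (n = 4) and pCP_GC (n = 3). Fzd7 and Dkk3 show all tumour arrays above all NGE arrays, Fzd4 shows them below, and Wif1 has a single high pChePS_GC array at 10.54.

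Frizzled receptors changed in both directions. In each tumour group 3 of 10 rose (30%, where 18.7% and 20% of all genes did) and 2 fell (20%, where 23.4% and 31.8% did). Fzd7, a receptor that serves stem cells of the gut epithelium, read 7.77, 7.63, 8.07 and 7.90 in NGE, against 11.16, 11.12, 10.31 and 9.997 on the pChePS_GC arrays and 10.15, 10.23 and 9.98 on the pCP_GC arrays. Every tumour array was above every NGE array, with no overlap. The rise was 6.97-fold in pChePS_GC (log2 2.80, SE 0.24, adjusted p 1.25e-05) and 4.85-fold in pCP_GC (2.28, SE 0.26, adjusted p 9.78e-05).

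Fzd1 rose in both cancers. It read 8.91, 9.06, 8.73 and 8.88 in NGE, against 11.19, 10.71, 11.29 and 10.49 on the pChePS_GC arrays and 10.71, 11.58 and 10.9997 on the pCP_GC arrays. Again the tumour arrays stood clear of NGE, by 4.07-fold (2.03, SE 0.21, adjusted p 4.63e-05) and 4.60-fold (2.20, SE 0.23, adjusted p 4.95e-05). Fzd2 belongs to the same receptor subfamily as Fzd1 and Fzd7 and also rose. Its signals were 8.34, 7.90, 8.36 and 8.32 in NGE, against 9.42, 8.94, 8.90 and 8.80 on the pChePS_GC arrays and 8.89, 10.07 and 9.39 on the pCP_GC arrays. The groups did not overlap, and the changes were 1.72-fold in pChePS_GC (0.78, SE 0.23, adjusted p 0.0208) and 2.33-fold in pCP_GC (1.22, SE 0.25, adjusted p 0.00268). The pChePS_GC call was lost without NGE replicate 2 (adjusted p 0.0507) or pChePS_GC replicate 1 (adjusted p 0.0517), and with quantile normalization (0.56, adjusted p 0.0815).

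Fzd4, which serves the ligand Norrin as well as Wnts and is known from blood vessels, was the receptor that fell furthest. It read 11.37, 11.62, 11.41 and 11.57 in NGE, against 9.08, 9.32, 10.23 and 9.47 on the pChePS_GC arrays and 9.44, 9.82 and 9.28 on the pCP_GC arrays. The highest tumour array was below the lowest NGE array. The fall was 3.91-fold (log2 -1.97, SE 0.22, adjusted p 6.79e-05) and 3.94-fold (-1.98, SE 0.24, adjusted p 0.00013). Endothelial sums were higher, and parietal, chief and surface mucous cell sums lower, in both tumour groups, as given above. The part of any cell type in the Fzd4 fall was not tested. Fzd3 narrowly passed as lower in pChePS_GC (-0.31, adjusted p 0.0455), a call lost in 10 of the 11 fits with 1 array left out (adjusted p 0.0504 to 0.0969) and kept only without pChePS_GC replicate 4 among them. With receptor centring it was -0.14 (adjusted p 0.343). Fzd10 fell in pCP_GC (-0.56, adjusted p 0.025), a call lost without NGE replicate 1 or 4 or pCP_GC replicate 2 (adjusted p 0.0542 to 0.0655, with a change of -0.29 without the latter) and with receptor centring, and Fzd5, Fzd6, Fzd8 and Fzd9 passed in neither comparison.

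The promoters of these receptors are shown because Fzd1 and Fzd7 rose together while Fzd4 fell, and they were searched for the binding letters of the TCF/LEF factors. Each window runs from 250 bases before to 50 bases after the RefSeq start (GRCm38.p6), 5′ to 3′ on the gene's strand, and capitals mark the letters CTTTGAA or CTTTGAT, or else the letters CTTTGTA or the letters CTTTGTT, on either strand. The Fzd7 window is chr1:59481897-59482196 on the plus strand, the Fzd1 window is chr5:4758167-4758466 on the minus strand, and the Fzd4 window is chr7:89404116-89404415 on the plus strand.
Fzd7: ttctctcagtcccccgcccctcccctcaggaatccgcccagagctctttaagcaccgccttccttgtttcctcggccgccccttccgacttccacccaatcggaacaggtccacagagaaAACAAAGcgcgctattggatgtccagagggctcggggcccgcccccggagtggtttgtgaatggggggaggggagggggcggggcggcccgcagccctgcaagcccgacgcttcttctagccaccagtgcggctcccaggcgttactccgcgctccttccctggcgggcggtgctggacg
Fzd1: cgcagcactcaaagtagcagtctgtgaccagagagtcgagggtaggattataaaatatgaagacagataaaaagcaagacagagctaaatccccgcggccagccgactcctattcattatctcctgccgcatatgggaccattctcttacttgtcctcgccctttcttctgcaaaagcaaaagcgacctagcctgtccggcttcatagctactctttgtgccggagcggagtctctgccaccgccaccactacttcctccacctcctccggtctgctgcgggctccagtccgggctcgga
Fzd4: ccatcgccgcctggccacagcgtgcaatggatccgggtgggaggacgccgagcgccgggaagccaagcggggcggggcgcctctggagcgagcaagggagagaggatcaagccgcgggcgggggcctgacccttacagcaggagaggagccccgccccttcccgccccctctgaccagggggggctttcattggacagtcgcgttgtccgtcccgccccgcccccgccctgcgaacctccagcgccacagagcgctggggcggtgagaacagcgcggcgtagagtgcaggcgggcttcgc
The Fzd7 window held 1 match, on the opposite strand and beginning at position -130 from the start, and those of Fzd1 and Fzd4 held 0. Windows were found for 33 of the 52 genes, 37 windows in all. A match was present in 5 of them (13.5%), those of Dkk1, Fzd7, Wnt11, Wnt3 and Wnt5b, and in 5544 of all 32851 windows (16.9%). The windows of the Wnt genes were rich in CpG, with a median of 25 CpG pairs in 300 bases against 7 in all windows, and Fzd4 held 32, Fzd7 24 and Fzd1 16. A match is a description of the letters, not a bound site.

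Of the co-receptors, Lrp5 rose in pChePS_GC. It read 11.41, 11.22, 11.16 and 11.39 in NGE, against 11.90, 11.93, 11.73 and 11.94 on the pChePS_GC arrays and 11.72, 11.19 and 11.50 on the pCP_GC arrays. The pChePS_GC arrays lay above NGE (1.49-fold, log2 0.58, SE 0.12, adjusted p 0.00318), whereas pCP_GC overlapped NGE (0.17, adjusted p 0.269). Lrp6, its paralogue, read 10.81 to 10.96 in NGE, 10.76 to 11.04 in pChePS_GC and 10.59 to 10.86 in pCP_GC. The groups overlapped, with changes of 0.04 (adjusted p 0.759) and -0.17 (adjusted p 0.212).

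The R-spondin receptors gave 3 different pictures. Lgr5, the marker of stem cells at the base of antral glands, read 7.65, 7.98, 7.28 and 7.26 in NGE, against 8.51, 8.71, 9.999 and 9.69 on the pChePS_GC arrays and 7.70, 9.96 and 8.17 on the pCP_GC arrays. All pChePS_GC arrays were above NGE, and among pCP_GC arrays replicate 2 stood high while replicate 1 fell within the NGE range. Lgr5 rose 3.22-fold in pChePS_GC (log2 1.69, SE 0.47, adjusted p 0.0171) and was 1.06 higher in pCP_GC, with a 95% interval from -0.07 to 2.19 (adjusted p 0.103). Without pCP_GC replicate 1 the pCP_GC change was 1.52 and passed (adjusted p 0.0395), and without replicate 2 it was 0.39 (adjusted p 0.455). The difference between the tumour groups was 0.62, with an interval from -0.51 to 1.75 (adjusted p 0.554), so a difference between the cancers was not shown.

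Lgr4, the broadly expressed receptor, read 12.48 to 12.62 in NGE, 12.04 to 12.62 in pChePS_GC and 12.20 to 12.30 in pCP_GC. Its changes were -0.18 (adjusted p 0.236) and -0.31 (adjusted p 0.0591). All pCP_GC arrays lay below NGE, and the pCP_GC change passed in 6 of 23 alternatives, among them median centring (-0.53, adjusted p 0.00702), array weights (-0.31, adjusted p 0.0107) and the fit of those groups only (adjusted p 0.013). Lgr6 read 7.97, 7.78, 8.04 and 7.88 in NGE, against 7.69, 7.55, 7.77 and 7.46 on the pChePS_GC arrays and 7.47, 7.43 and 7.61 on the pCP_GC arrays. It fell slightly in both (-0.30, adjusted p 0.0286, and -0.41, adjusted p 0.0071), and the pChePS_GC call was lost in 5 of the 11 fits with 1 array left out (adjusted p 0.0556 to 0.0791) and with receptor centring (adjusted p 0.259). Receptor centring also ended the pCP_GC call (-0.20, adjusted p 0.107).

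The R-spondins themselves, the ligands of those receptors, did not rise as a group. None of the 4 passed in pChePS_GC, where 18.7% of all genes rose and 23.4% fell. In pCP_GC Rspo2 and Rspo4 fell by 0.56 and 0.49 (adjusted p 0.00168 and 0.00364), Rspo2 at background in both groups. That is 50% of the 4 lower and 0% higher, where 31.8% and 20% of all genes were. The Rspo4 call was lost with receptor centring (-0.27, adjusted p 0.0837). Rspo3, the R-spondin made by stromal cells beneath the gastric glands, read 7.38, 7.11, 7.57 and 7.66 in NGE, against 7.34, 7.71, 9.52 and 7.99 on the pChePS_GC arrays and 7.4998, 9.59 and 7.88 on the pCP_GC arrays. A single array stood high in each tumour group, pChePS_GC replicate 3 and pCP_GC replicate 2, and the changes of 0.71 (adjusted p 0.265) and 0.89 (adjusted p 0.187) did not pass.

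Of the 10 secreted inhibitors, 4 rose and 1 fell in pChePS_GC, with a median change of 0.96, and 6 rose and 3 fell in pCP_GC, with a median of 1.47. That is 40% and 60% higher, where 18.7% and 20% of all genes were, and 10% and 30% lower, where 23.4% and 31.8% were. Sfrp1 had the largest rise of the 52 genes in both. Sfrp1 binds Wnts outside the cell, and it read 7.92, 7.84, 7.08 and 7.49 in NGE, against 9.36, 10.75, 12.49 and 11.81 on the pChePS_GC arrays and 11.33, 13.06 and 11.72 on the pCP_GC arrays. The lowest tumour array was above the highest NGE array, and the pChePS_GC arrays spanned more than 3 log2 units. The rise was 11.5-fold in pChePS_GC (3.52, SE 0.60, adjusted p 0.00115) and 21.9-fold in pCP_GC (4.46, SE 0.65, adjusted p 0.000437).

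Sfrp2 and Sfrp4, paralogues of Sfrp1 that are typical of connective tissue, were at background in NGE. Sfrp2 read 7.496, 7.37, 7.05 and 7.0006 in NGE, against 7.89, 7.89, 8.50 and 8.78 on the pChePS_GC arrays and 8.02, 11.01 and 7.89 on the pCP_GC arrays. It rose in pCP_GC (1.74, SE 0.62, adjusted p 0.0353), and without pCP_GC replicate 2, whose signal was far above the other pair, the change was 0.73 (adjusted p 0.0434). Leaving out any 1 of the 4 NGE arrays ended that call (adjusted p 0.0544 to 0.0752), as did the fit of those groups only (adjusted p 0.0514). In pChePS_GC all arrays lay above NGE, and the change of 1.04 did not pass (adjusted p 0.159). It did pass in the fit of pChePS_GC and NGE only, with array weights and without pCP_GC replicate 2. With pChePS_GC 3 and pCP_GC 2 both left out it passed as well.

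Sfrp4 read 6.89, 6.87, 6.54 and 6.72 in NGE, against 6.55, 8.78, 8.18 and 8.11 on the pChePS_GC arrays and 7.55, 8.59 and 7.72 on the pCP_GC arrays. One pChePS_GC array, replicate 1, lay within the NGE range, and all others were higher. Sfrp4 passed narrowly in both groups (1.15, adjusted p 0.0403, and 1.198, adjusted p 0.0386), and the pChePS_GC call was lost without any 1 of NGE 1 to 4, pChePS_GC 2, 3 or 4, or pCP_GC 3 (adjusted p 0.0507 to 0.107). The pCP_GC call was lost without any 1 of NGE 1 to 4, pCP_GC 2 (0.88, adjusted p 0.153) or pCP_GC 3. Sfrp5, a family member known from epithelia, fell by 0.42 (adjusted p 0.0263) and 0.43 (adjusted p 0.0258). The pChePS_GC call was lost without NGE replicate 1, 3 or 4 or pChePS_GC replicate 1 (adjusted p 0.0549 to 0.0765), the pCP_GC call without NGE replicate 3 or 4 or pCP_GC replicate 1 or 3 (adjusted p 0.0653 to 0.0807), and both with receptor centring (adjusted p 0.216 and 0.301).

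Among the Dickkopf genes, Dkk2 and Dkk3 rose. Dkk3, a divergent member of the family, read 7.33, 7.01, 7.93 and 7.24 in NGE, against 9.50, 9.56, 10.79 and 9.63 on the pChePS_GC arrays and 9.37, 10.25 and 9.64 on the pCP_GC arrays. The tumour arrays did not overlap NGE, and the rises were 5.62-fold (2.49, SE 0.31, adjusted p 0.000152) and 5.19-fold (2.38, SE 0.33, adjusted p 0.000365). Dkk2, which binds Lrp5 and Lrp6, read 7.33, 7.02, 7.40 and 7.70 in NGE, against 9.12, 9.60, 8.81 and 7.89 on the pChePS_GC arrays and 9.53, 9.89 and 9.30 on the pCP_GC arrays. pChePS_GC replicate 4 came close to NGE but stayed above it. Dkk2 was 2.81-fold higher in pChePS_GC (1.49, SE 0.31, adjusted p 0.00356) and 4.62-fold higher in pCP_GC (2.21, SE 0.33, adjusted p 0.000539). Dkk1 and Dkk4, the other family members, fell in pCP_GC (-0.71, adjusted p 0.0017, and -0.49, adjusted p 0.0157) and did not pass in pChePS_GC (-0.25 and -0.26). The Dkk4 call was lost without pCP_GC replicate 2 (-0.32, adjusted p 0.0644) and with receptor centring (-0.27, adjusted p 0.132).

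Wif1, which binds Wnts through a domain of its own and not through a frizzled-like one, was the inhibitor that set the tumour groups furthest apart. It read 7.52, 7.39, 7.59 and 7.45 in NGE, against 7.31, 7.74, 10.54 and 7.87 on the pChePS_GC arrays and 9.72, 11.56 and 10.18 on the pCP_GC arrays. All pCP_GC arrays were high, and in pChePS_GC only replicate 3 was. Wif1 rose 7.98-fold in pCP_GC (3.00, SE 0.67, adjusted p 0.00433), while in pChePS_GC the change was 0.88 with a 95% interval from -0.50 to 2.25 (adjusted p 0.267). Notum, the enzyme that removes the lipid from Wnts, read 7.07 to 7.56 in NGE, 7.32 to 7.51 in pChePS_GC and 7.27 to 7.47 in pCP_GC, with changes of 0.02 (adjusted p 0.892) and -0.02 (adjusted p 0.924).

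The feedback inhibitors, which are among the best known targets of β-catenin, moved little. None of the 4 passed in pChePS_GC, where the median change was 0.17, while 18.7% of all genes rose and 23.4% fell. Axin2 and Rnf43 rose in pCP_GC, where the median was 0.38. That is 50% of the 4 higher and 0% lower, where 20% of all genes rose and 31.8% fell. Axin2, the scaffold that helps destroy β-catenin, read 8.02, 8.02, 8.20 and 8.02 in NGE, against 8.13, 8.17, 8.25 and 8.35 on the pChePS_GC arrays and 8.45, 8.59 and 8.19 on the pCP_GC arrays. The groups overlapped, and the rise in pCP_GC was 1.27-fold (0.35, SE 0.11, adjusted p 0.0198), against 0.16 (adjusted p 0.205) in pChePS_GC. The pCP_GC call was lost without pCP_GC replicate 1 (adjusted p 0.0602) or 2 (adjusted p 0.0854), with median centring (adjusted p 0.248) and with quantile normalization (adjusted p 0.239). The Axin2 promoter is shown as that of a textbook TCF/LEF target, at chr11:108920099-108920398 on the plus strand (GRCm38.p6, RefSeq), and its window held 31 CpG pairs and 0 matches, which says only that those letters are not in this window.
Axin2: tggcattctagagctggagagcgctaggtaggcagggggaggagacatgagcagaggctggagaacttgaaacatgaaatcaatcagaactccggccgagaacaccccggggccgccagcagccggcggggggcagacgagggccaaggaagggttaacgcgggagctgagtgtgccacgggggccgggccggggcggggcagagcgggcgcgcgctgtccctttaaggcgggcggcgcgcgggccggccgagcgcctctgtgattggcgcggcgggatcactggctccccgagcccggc

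Rnf43, a ligase that clears frizzled receptors, read 9.69, 9.65, 9.51 and 9.54 in NGE, against 9.62, 9.75, 10.20 and 10.05 on the pChePS_GC arrays and 10.14, 10.32 and 10.22 on the pCP_GC arrays. The pCP_GC arrays lay above NGE (1.55-fold, 0.63, SE 0.13, adjusted p 0.00323), and pChePS_GC overlapped it (0.31, adjusted p 0.0675). The pChePS_GC change of Rnf43 passed in 3 of 23 alternatives. These were array weights (adjusted p 0.0288), receptor centring (adjusted p 0.0202) and the fit without pChePS_GC replicate 1 (adjusted p 0.0216). Znrf3, its paralogue, read 9.60 to 9.86 in NGE, 9.07 to 9.87 in pChePS_GC and 9.50 to 9.92 in pCP_GC, with changes of -0.16 (adjusted p 0.444) and -0.03 (adjusted p 0.887). Nkd1, which acts on Dishevelled, read 8.17 to 8.75, 8.48 to 8.99 and 8.69 to 9.38, with changes of 0.17 (adjusted p 0.452) and 0.40 (adjusted p 0.107). Axin2, Nkd1, Notum, Rnf43 and Znrf3 thus held 2 calls in the pair of comparisons with NGE, both in pCP_GC.

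Between the tumour groups, which differ in the Cdh1 and Smad4 alleles, 0 of 52 genes passed limma in either direction, where 0.115% of all genes were higher in pChePS_GC and 0.251% lower, 0.366% in either direction. At an unadjusted p under 0.05 there were 16 genes (30.8%), where 16.5% of all genes were. The arrays of the groups did not overlap for 11 genes, 9 with pChePS_GC higher and 2 with it lower, where 9.5% and 4.4% of all genes did so. The largest differences (pChePS_GC minus pCP_GC) were those of Wif1, at -2.12 with a 95% interval from -3.61 to -0.63 (adjusted p 0.183), and Wnt5a, at -1.40 with an interval from -2.40 to -0.39 (adjusted p 0.187).

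Wnt2b and Fzd3 were lower on all pChePS_GC arrays than on any pCP_GC array. The Wnt2b signals were 7.38, 7.58, 7.78 and 7.53 against 8.40, 7.84 and 8.39, a difference of -0.64 (interval -0.96 to -0.32, adjusted p 0.0973). For Fzd3 they were 8.42, 8.01, 8.40 and 8.55 against 8.85, 8.96 and 8.85, a difference of -0.54 (interval -0.81 to -0.28, adjusted p 0.0938). An exact two-sided permutation test over the 35 arrangements of 4 and 3 arrays cannot go below 0.0286, the value for both genes, which restates that their arrays do not overlap. Lrp5 was 0.41 higher in pChePS_GC (interval 0.13 to 0.69, adjusted p 0.178). For other genes that changed strongly from NGE the difference between the tumour groups was 0.01 for Fzd4 (interval -0.51 to 0.53), -0.18 for Fzd1 (-0.68 to 0.32) and 0.11 for Dkk3 (-0.62 to 0.85). Differences up to those bounds remain possible.

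Whether Wif1 and Wnt2b passed depended on the fit and on single arrays. Without pChePS_GC replicate 3 the difference was -2.85 (adjusted p 0.0136), and Wnt2b passed without pCP_GC replicate 2 (-0.83, adjusted p 0.0129). With all 11 arrays kept and weighted, Wnt2b also passed (-0.76, adjusted p 0.0222). The arrays left out had the highest fibroblast sums of their groups. With both left out, a choice made after seeing the data, Wif1 differed by -2.31 (adjusted p 0.0013) and Wnt2b by -0.90 (adjusted p 0.00608).

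The members varied within the tumour groups as well. The fibroblast marker sum was 14.30, 14.66, 15.34 and 14.83 on pChePS_GC replicates 1 to 4 and 14.60, 15.32 and 14.88 on pCP_GC replicates 1 to 3. Dkk3, Lgr5, Rnf43, Rspo1, Rspo3, Sfrp1, Sfrp5 and Wif1, 8 of 52 genes, had the same order of arrays as that sum in both tumour groups, as did 346 of 19938 genes (1.74%). Only Wnt7a had the opposite order in both, as did 228 genes (1.14%). Fzd7 and Wnt5a did not follow the order of that sum in pChePS_GC. The order rests on 4 and 3 arrays and is a description, and the part of fibroblast content in these genes was not tested.

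**Figure D3:**
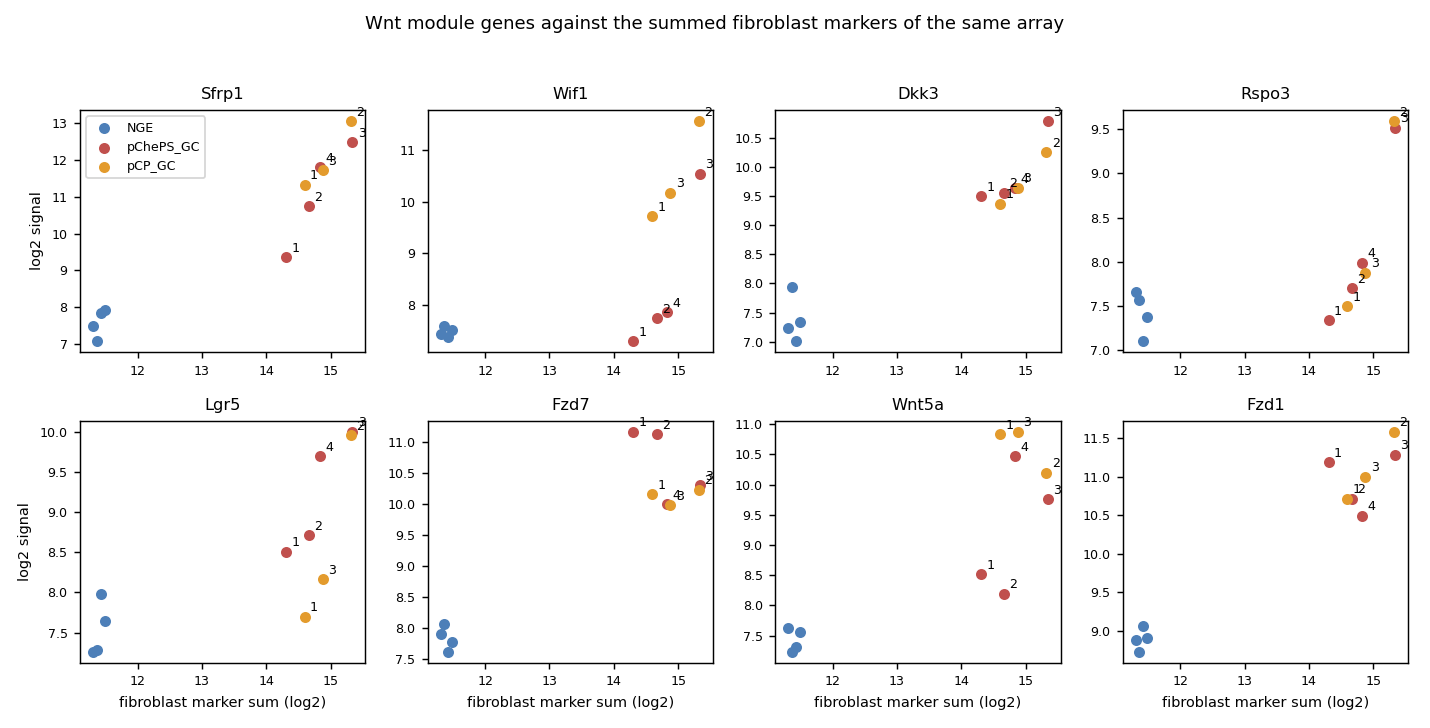
Log2 signal of 8 genes (y axis, scaled per panel) against the log2 summed signal of 10 fibroblast markers (x axis), 1 point per array coloured by group, with replicate numbers on tumour arrays. NGE arrays sit at 11.31 to 11.49 on the x axis and tumour arrays at 14.30 to 15.34, and within each tumour group Sfrp1 and Wif1 are highest on the array with the highest fibroblast sum.

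The wider pathway was described from 73 further symbols, of which 70 were measured. Tcf7 and Ephb2 were not measured, and Gpr124 is an older symbol of Adgra2, which was. In pChePS_GC 29 rose (41.4%) and 9 fell (12.9%), where 18.7% and 23.4% of all genes did, and in pCP_GC 28 rose (40%) and 9 fell (12.9%), where 20% and 31.8% did. The list shares that follow are read against the same shares of all genes. Porcn, the enzyme that puts the lipid on Wnts, rose 4.51-fold in pChePS_GC (2.17, SE 0.29, adjusted p 0.000245) and 4.74-fold in pCP_GC (2.25, SE 0.31, adjusted p 0.000353). Wls, which carries Wnts to the cell surface, did not pass in pChePS_GC (0.00, adjusted p 0.981) and rose in pCP_GC (0.53, adjusted p 0.00475), a call lost with median centring (0.32, adjusted p 0.0534).

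Of 17 other receptors and co-receptors, 12 rose (70.6%) and 2 fell (11.8%) in pChePS_GC (median change 0.78), and 10 rose (58.8%) and 2 fell (11.8%) in pCP_GC (median 0.76). Ptk7, a receptor of the planar polarity branch, rose by 1.55 (adjusted p 0.000343) and 1.24 (adjusted p 0.00192). Reck, which with Adgra2 forms a receptor for Wnt7 ligands, rose by 1.16 (adjusted p 0.00732) and 1.80 (adjusted p 0.000881), and Adgra2 rose by 1.28 (adjusted p 0.00942) and 1.19 (adjusted p 0.0144; without pCP_GC replicate 2 the change was 0.76, adjusted p 0.0557). Vangl1, a polarity protein, rose by 1.14 and 1.36 (adjusted p 0.000527 and 0.000304). Celsr1, a polarity cadherin of epithelia, fell in pCP_GC (-1.03, adjusted p 0.00119) and not in pChePS_GC (-0.15, adjusted p 0.485). The difference of 0.88 between the tumour groups did not pass (adjusted p 0.0725).

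Of 12 other modulators, 4 rose (33.3%) and 1 fell (8.33%) in pChePS_GC and 5 rose (41.7%) and 2 fell (16.7%) in pCP_GC. Igfbp4, a secreted inhibitor of Wnt receptors that also binds insulin-like growth factors, rose 18.5-fold (4.21, SE 0.28, adjusted p 2.59e-06) and 23.0-fold (4.52, SE 0.30, adjusted p 4.23e-06). Frzb, a relative of the Sfrp genes, rose by 2.23 (adjusted p 0.027) and 2.06 (adjusted p 0.041) from a level at background in NGE. Each Frzb call was lost in 6 of the 11 fits with 1 array left out (adjusted p 0.0518 to 0.0637 and 0.0522 to 0.159), and without pCP_GC replicate 2 the pCP_GC change was 0.99. Nkd2 rose in both, from a mean of 7.76 in NGE to 9.21 in pChePS_GC and 8.91 in pCP_GC, and 0 of 22 alternative fits ended either call. Apcdd1, a membrane inhibitor of the pathway, rose in pCP_GC (2.04, adjusted p 0.00115) and was 0.62 higher in pChePS_GC (adjusted p 0.143).

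Among 17 cytoplasmic transducers, 5 rose (29.4%) and 4 fell (23.5%) in pChePS_GC and 4 rose (23.5%) and 3 fell (17.6%) in pCP_GC, near the shares of all genes other than the falls in pCP_GC. Ctnnb1, which encodes β-catenin, rose by 0.46 (adjusted p 0.0046) and 0.44 (adjusted p 0.00612), and both calls were lost with median centring. Csnk1e, a kinase of the Dishevelled complex, rose by 1.23 (adjusted p 3.05e-05) and 1.14 (adjusted p 9.93e-05), and Dvl1, a Dishevelled gene, fell by 0.77 (adjusted p 0.00106) and 0.66 (adjusted p 0.00324). Of 11 nuclear factors, 1 rose (9.09%) and 2 fell (18.2%) in pChePS_GC and 2 rose (18.2%) and 2 fell (18.2%) in pCP_GC, led by Bcl9, a β-catenin co-activator, with rises of 1.495 (adjusted p 2.98e-05) and 1.90 (adjusted p 1.3e-05).

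Of 19 transcriptional targets, a list that shares its feedback genes and Lgr5 with the 52, 7 rose (36.8%) and 0 fell in pChePS_GC (median 0.31) and 8 rose (42.1%) and 0 fell in pCP_GC (median 0.63). Cd44, a surface receptor for hyaluronan, rose by 4.18 (adjusted p 3.3e-06) and 4.70 (adjusted p 4.18e-06). Ccnd1, the cyclin of early cell cycle, rose by 1.18 (adjusted p 0.000445) and 1.53 (adjusted p 0.000156). Sums of 5 proliferation markers, all higher in both tumour groups, were 11.31 to 11.56 in NGE, 12.35 to 13.19 in pChePS_GC and 12.74 to 13.43 in pCP_GC. Mmp7, a protease of epithelial cells, was the 1 gene of these lists that passed between the tumour groups. It read 11.60, 11.63, 12.27 and 12.85 in pChePS_GC and 7.55, 9.86 and 7.9975 in pCP_GC, against a mean of 7.30 ± 0.05 (SD, n = 4) in NGE. The difference was 3.62 (SE 0.47, adjusted p 0.0144). It did not pass in the fit of those groups only (adjusted p 0.214), where 0 of all genes did, or without pCP_GC replicate 3 (3.38, adjusted p 0.0597). Mmp7 was 27.6-fold above NGE in pChePS_GC (4.79, adjusted p 1.96e-05). These targets also answer to other pathways, and their source cells cannot be told from bulk RNA.

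**Figure D4:**
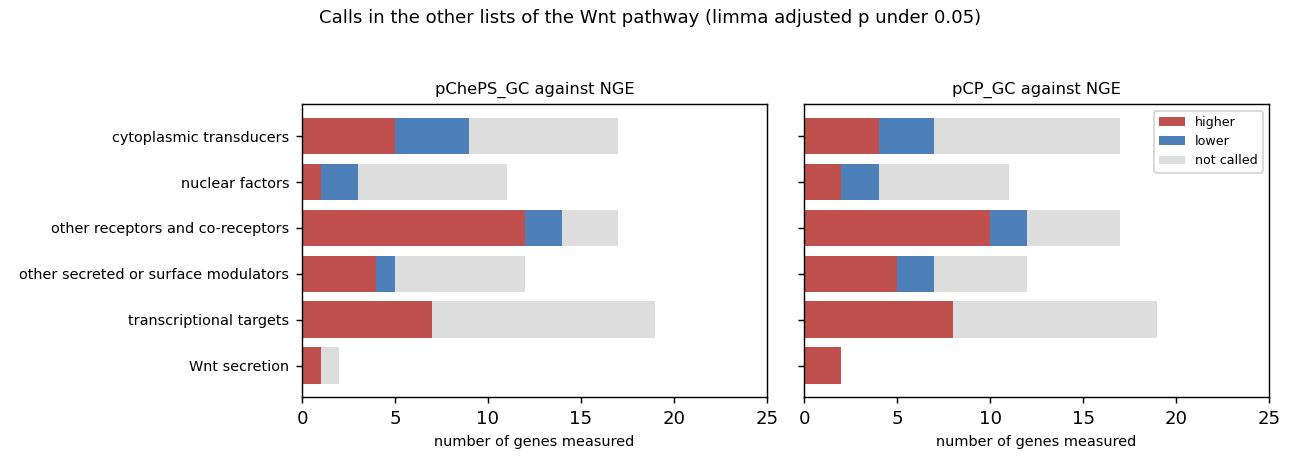
Number of measured genes (x axis) that rose, fell or did not pass against NGE (limma adjusted p under 0.05) in each of the 6 pathway lists, of which the targets include Lgr5 and the feedback genes of the 52, for pChePS_GC and pCP_GC. The other receptors rose more often than they fell (12 against 2 and 10 against 2 of 17), and of the 19 targets 7 and 8 rose and 0 fell.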

How the data were processed

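The deposited table holds a normalized log2 value for every probe set on each array; the scale was read from the range of the values. The submitters' processing notes name Affymetrix Expression Console, but not its version, algorithm or build, each of them not given in the sources used here. Of 35556 probe sets, 21789 had 1 gene symbol, 1621 several and 12146 none in the platform annotation, and 21698 matched a mouse RefSeq gene by number (GRCm38.p6) with 0 symbols changed. Each gene took its probe set with the highest mean over 11 arrays, for 19938 genes in all, and 999 had several. No dim gene was left out. Background correction and normalization by the authors set the level of dim genes. The number of arrays limits precision.

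Group means were fitted to all 11 arrays with limma 3.58.1 (lmFit, eBayes) in R 4.3.3, so the comparisons share 1 spread per gene. Two-sided p-values were adjusted by Benjamini-Hochberg over 19938 genes, with a threshold of 0.05. The fit was tested on simulated data. Named were the 12 genes with the largest passing change per comparison, the feedback genes, and Lgr4, Lgr5, Lgr6, Lrp5 and Lrp6. They were given by array, other than Lgr4, Lrp6, Notum, Nkd1 and Znrf3, which were given by group range. Up to 3 genes per direction from each pathway list were named by change or group mean, and Mmp7 by tumour array. Wnt2b, Fzd3 and Rspo3 were also given by array, after their values were seen. The genes, lists and tests were chosen with earlier results of these data known. Alternatives were other normalizations, filters, thresholds and fits, and leaving out each array. Expression of the floxed genes was not analysed here.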

Additional observations from a re-analysis of the deposited data

Results flagged for a closer look

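Of 104 groups of 4 arrays examined, 7 held an array that stood apart from the other 3 by Dixon's test at the 95% level, and 5% of groups are expected to do so by chance. In NGE, Axin2 was 8.20 on replicate 3 against 8.02 on the others, Fzd2 was 7.90 on replicate 2 against 8.32 to 8.36, and Fzd6 was 8.72 on replicate 1 against 9.20 to 9.30. Also in NGE, Wnt2 was 7.20 on replicate 1 against 7.14 to 7.15, and Wnt3 was 7.31 on replicate 2 against 7.55 to 7.59. In pChePS_GC, Dkk3 was 10.79 on replicate 3 against 9.50 to 9.63, and Sfrp5 was 6.88 on replicate 1 against 7.28 to 7.33. Groups of 3 were not examined.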

How the results depend on the processing

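For 53 gene results, 1207 alternatives were run, the 2-fold rule not among them: 1145 kept their side of the threshold, 46 lost the call and 16 gained it. Where the main fit or the alternative passed, 0 reversed direction. Changes that passed in neither were not counted as reversed when their sign switched, as for Notum in pChePS_GC (-0.15 to 0.19). Sfrp1, Fzd1, Fzd4, Fzd7, Dkk2, Dkk3, Wnt5a and Wnt11 kept their calls against NGE in both tumour groups under all these alternatives, and under the 2-fold rule all but Wnt11 did. Counts of lower genes depended on scaling and dim genes, and the counts over all 19938 genes moved as well. Over all genes 4658 fell in pChePS_GC, 9101 with median centring, 5045 with quantile normalization, 5878 with array weights and 1714 with receptor centring. Without the dimmest 50% of genes 1877 fell, at 2-fold 665, and with 1 array left out 3129 to 5195. In pCP_GC 6343 of all genes fell, against 9716 with median centring and 2646 with receptor centring. Without the dimmest 50% it was 1672, and at 2-fold 564. For the Wnt genes in pChePS_GC, 9 fell; 23 did with median centring, 17 with quantile normalization, 15 with array weights, 3 with receptor centring (added after seeing the data), 3 without the dimmest 50% of genes, 1 at 2-fold and 4 to 11 with 1 array left out. In pCP_GC 19 fell, against 8 with receptor centring, 4 without the dimmest 50% and 1 at 2-fold. For the pathway lists in pChePS_GC, 29 rose (16 at 2-fold, 22 to 31 with 1 array left out) and 9 fell (14 with median centring, 5 without the dimmest 50%, 0 at 2-fold). In pCP_GC, 28 of them rose (18 with median centring, 15 at 2-fold, 20 to 30 with 1 array left out) and 9 fell (17 with median centring, 5 with receptor centring, 4 without the dimmest 50%, 1 at 2-fold). Of all genes, 3728 rose in pChePS_GC (1392 at 2-fold, 2927 to 3889 with 1 array left out). In pCP_GC 3994 did (2686 with median centring, 1621 at 2-fold, 3300 to 4187 with 1 array left out). Between tumour groups, 0 Wnt genes were lower, against 1 with array weights, 2 with pChePS_GC 3 and pCP_GC 2 both left out (also added) and 0 to 1 with 1 array left out. Of all genes 50 were lower, against 134 with array weights, 140 with both left out and 17 to 103 with 1 left out. For the pathway lists 1 was higher, against 0 in the fit of the 2 groups only, 0 with the replicate block, 4 with both arrays left out and 0 to 2 with 1 left out, and 0 were lower, against 1 with array weights, 2 with both left out and 0 to 1. Of all genes 23 were higher, against 70 with both left out and 7 to 51 with 1 left out. In the fit of the 2 groups only and with the replicate block, 0 of all genes passed in either direction. The cause was not tested. Whether replicate numbers pair the samples is not known. Correlations ran from -0.15 to 0.16 for same-numbered arrays and from -0.38 to 0.32 for differently numbered arrays, and these overlapping ranges cannot decide it. With the replicate block 10 Wnt genes rose and 10 fell in pChePS_GC, where 3634 and 4919 of all genes did. In pCP_GC 12 rose and 19 fell, where 3698 and 5912 of all genes did. The block ended the calls of Fzd2 (adjusted p 0.0506) and Fzd3 (0.0734) in pChePS_GC, of Sfrp2 (0.0555), Sfrp5 (0.0548) and Frzb (0.096) in pCP_GC, and of Mmp7 between the tumour groups (0.099).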

Other observations

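A few ligands, chosen after their values were seen, were high on 1 or 2 pChePS_GC arrays and did not pass against NGE, although Wnt4, Wnt10a and Wnt2 passed in pChePS_GC with array weights. On its brighter probe set Wnt4, a ligand of epithelia and stroma, read 10.68 on pChePS_GC replicate 1 and 9.77 on replicate 2. It read 9.06 to 9.32 in NGE, and 9.25 and 9.21 on the other pChePS_GC arrays. The pCP_GC arrays, at 9.36 to 9.73, all lay above NGE for Wnt4. On the dimmer Wnt4 probe set the pChePS_GC arrays read 10.44, 9.51, 9.27 and 9.47. All of them, and the pCP_GC arrays at 9.25 to 9.36, lay above its highest NGE array, at 9.21. Wnt10a, a canonical ligand, read 10.06 on pChePS_GC replicate 2, where the NGE arrays read 8.43 to 8.87 and the pCP_GC arrays 8.24 to 8.54. Wnt2, a ligand of mesenchymal cells, read 7.66 and 8.04 on pChePS_GC replicates 1 and 2, and 7.03 to 7.27 on all other arrays. Wnt7a read 8.36 on pChePS_GC replicate 1 and 8.003 and 7.86 on pCP_GC replicates 1 and 3, against 7.32 to 7.59 in NGE. pChePS_GC replicates 1 and 2 were those with the lowest fibroblast sums of their group, at 14.30 and 14.66.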
